A study of Mus musculus with 18 samples.

Results

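Expression of 7 genes of epithelial attachment to the basement membrane was followed in tumor cells with and without a knockout of Kdm3a, a histone H3 lysine 9 demethylase. The genes were chosen by symbol, with earlier results of these data known. They are the laminin chain genes Lama3, Lamb3 and Lama5 and the integrin subunit genes Itga3, Itga6, Itgb1 and Itgb4. They are 7 of the 24493 gene symbols measured, and all 7 passed the filter for testing, an average of 1 TPM or more over all libraries, which 13422 genes met. TPM is transcript abundance scaled by transcript length and to a fixed total per library.

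The cells came from 2 mouse pancreatic tumor lines, 6419c5 and 6694c2, of strain C57BL/6. They had been grown as subcutaneous tumors and sorted, with no treatment. Per line there were wild-type (WT) cells and 2 Kdm3a-KO clones, called A and B here, with 3 libraries in each of the 6 groups, 18 in all. A knockout group is 1 clone, so its libraries measure the spread within that clone. The labels do not say which marker was sorted on, how Kdm3a was disrupted, or whether separate animals gave the libraries of a group, so p-values measure only the spread between these libraries, which may be technical. Kdm3a itself fell by 0.75 in 6419c5 (SE 0.18, limma adjusted p = 0.0185) and by 0.75 in 6694c2 (SE 0.18, limma adjusted p = 0.0091) on the log2(TPM + 1) scale used for all changes below. Its transcript was present in all knockout libraries (12.3 to 30.2 TPM, against 24.1 to 67.65 TPM in WT), and clone A of 6419c5 did not pass the test on its own (-0.45, limma adjusted p = 0.299). Sequencing depth is unknown, because TPM hold no read numbers.

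Laminins are cross-shaped heterotrimers of an alpha, a beta and a gamma chain and form the network to which epithelial cells attach. Laminin-332 contains the chains encoded by Lama3 and Lamb3 and anchors hemidesmosomes, and laminins that contain the alpha 5 chain encoded by Lama5 are the main laminins of many mature epithelial basement membranes. Cells bind both through integrins, chiefly alpha 3 beta 1 (Itga3 and Itgb1), alpha 6 beta 1 (Itga6 and Itgb1) and alpha 6 beta 4 (Itga6 and Itgb4), the last of which links laminin to keratin filaments in hemidesmosomes.

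By GENCODE M21 on build GRCm38, these are protein-coding genes. Lamb3 lies on chromosome 1 (193207699 to 193343878, plus strand) and Lama5 on chromosome 2 (180176373 to 180225859, minus strand). Itga3 lies on chromosome 11 (95044474 to 95076801, minus strand), Itga6 on chromosome 2 (71745616 to 71858416, plus strand), Itgb1 on chromosome 8 (128685654 to 128733200, plus strand) and Itgb4 on chromosome 11 (115974709 to 116008412, plus strand). The Lamb3 gene model overlaps 6 others, Hsd11b1 and G0s2 among them. Whether the quantification used strand is not given in the sources used here, so reads of an overlapping gene on the opposite strand cannot be told apart.

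A promoter was listed for 4 of the 7 genes in RefSeq (build GRCm38.p6). The Lamb3 and Lama5 promoters are shown because these laminin chains moved differently, Lamb3 being below WT in every knockout library and Lama5 only in 4 libraries of 6694c2. The letters run from 5′ to 3′ on the gene's strand and lie upstream of a RefSeq start, at chr1:193301744-193301992 (plus strand) for Lamb3 and chr2:180225860-180226109 (minus strand) for Lama5. Capitals mark matches, on either strand, to the KLF-type motif CCACCC in Lamb3 and to the GC box GGGCGG in Lama5.
Lamb3: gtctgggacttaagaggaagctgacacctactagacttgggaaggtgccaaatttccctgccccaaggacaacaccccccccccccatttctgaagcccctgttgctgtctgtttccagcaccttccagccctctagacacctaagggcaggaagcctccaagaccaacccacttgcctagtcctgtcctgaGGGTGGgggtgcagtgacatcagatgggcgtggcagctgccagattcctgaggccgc
Lama5: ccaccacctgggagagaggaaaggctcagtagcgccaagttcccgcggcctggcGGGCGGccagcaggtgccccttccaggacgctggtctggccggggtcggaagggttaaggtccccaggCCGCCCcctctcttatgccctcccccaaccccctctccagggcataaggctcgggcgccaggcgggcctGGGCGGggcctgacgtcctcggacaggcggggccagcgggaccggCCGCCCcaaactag

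The Lamb3 stretch held 1 KLF-type match, its first base at position -58 from the start, and no GC box. The Lama5 stretch held 4 GC boxes, with first bases at -196, -128, -59 and -14, and no KLF-type match. Neither held the AP-1 motif TGANTCA on either strand. These motifs are common: of 32851 promoters cut to the same 250 bases before the start, 28.1% held the KLF-type motif, 32.7% the GC box and 6.75% the AP-1 motif. A match is a description of letters and not a measured binding site.

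The levels differed widely between the genes. Averaged over the 18 libraries, Itgb1 was the most abundant at 375 TPM, then Itga3 at 259.5, Itga6 at 164, Lama5 at 143 and Itgb4 at 109.9 TPM. Lamb3 averaged 27.4 TPM and Lama3 3.08 TPM. The integrin genes were abundant in every group, and Lama3 was scarce even in WT cells.

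**Figure D1:**
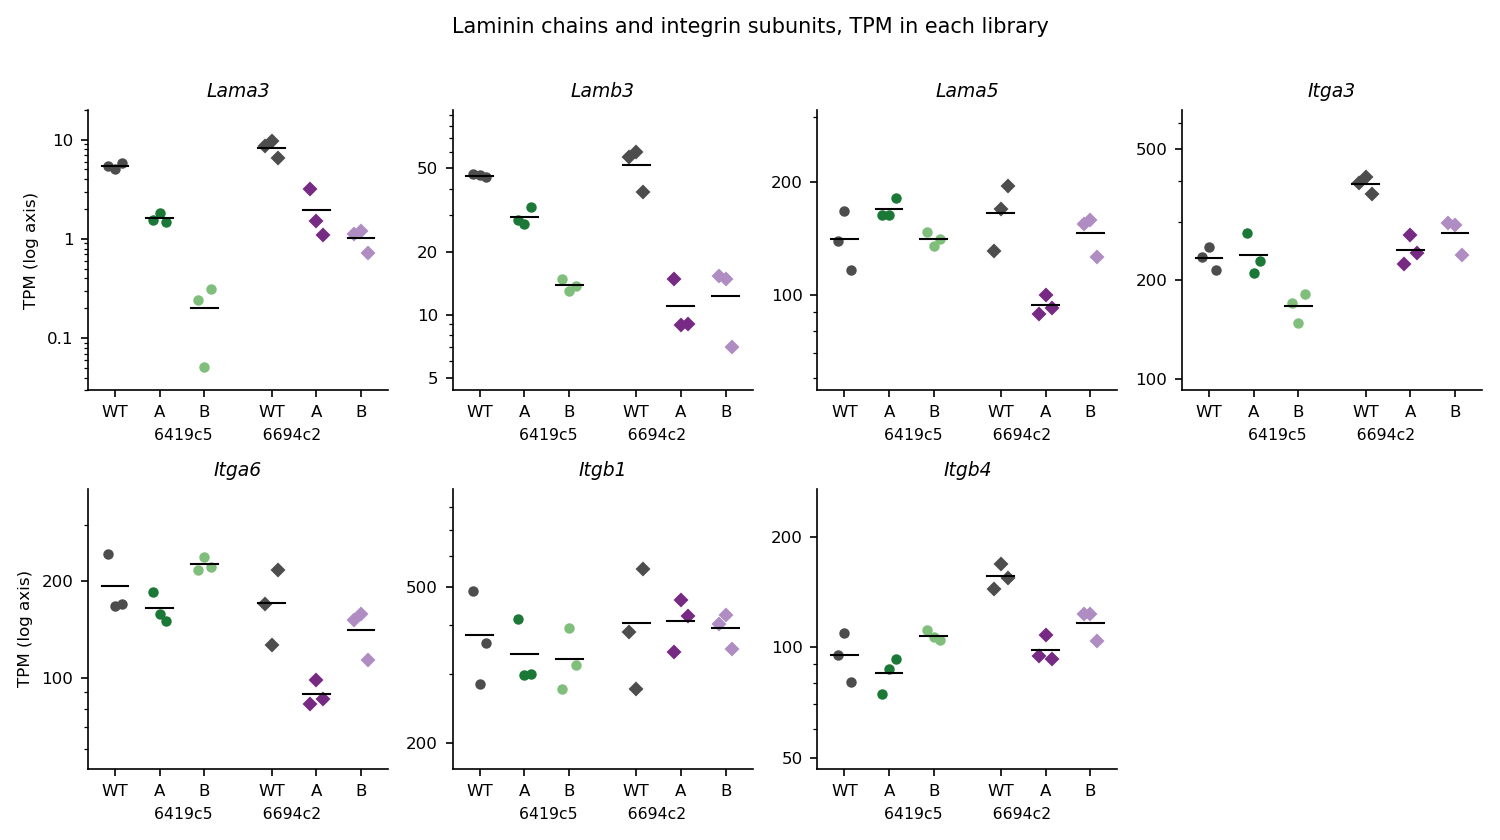
TPM of each gene (log axis, each panel with its own range) in the 3 libraries of WT, clone A and clone B of lines 6419c5 (circles) and 6694c2 (diamonds), with the group mean as a line. For Lama3 and Lamb3 every knockout library lies below every WT library of its line, and for Itgb1 the groups overlap throughout.

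Lama3 and Lamb3 transcripts were lower in the knockout cells of both lines. Lama3 stood at 30.05% and 3.75% of the WT mean TPM in clones A and B of 6419c5 and 23.5% and 12.2% in those of 6694c2. Lamb3 stood at 63.5% and 29.95% in 6419c5 and at 21.2% and 23.85% in 6694c2. These are bulk measurements, so fewer cells that express a gene and less RNA per cell cannot be told apart.

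Lama3 encodes the alpha 3 chain, which carries the integrin-binding end of laminin-332, and its gene model (chromosome 18, 12333819 to 12583013, plus strand, GRCm38) overlaps 4 others. In 6419c5 it was at 5.43, 5.07 and 5.78 TPM in WT, at 1.56, 1.84 and 1.49 TPM in clone A and at 0.245, 0.0519 and 0.313 TPM in clone B. In 6694c2 it was at 8.61, 9.72 and 6.51 TPM in WT, at 3.22, 1.51 and 1.11 TPM in clone A and at 1.13, 1.19 and 0.72 TPM in clone B. No knockout library reached the lowest WT library of its line, and clone B of 6419c5 was close to 0. Lama3 fell by 1.86 in 6419c5 (SE 0.19, limma adjusted p = 1.82e-05) and by 1.95 in 6694c2 (SE 0.19, limma adjusted p = 4.39e-06). The line effects differed by -0.10 (95% interval -0.67 to 0.48, limma adjusted p = 0.866). Each of the 4 clones passed the test alone, with changes of -1.29 and -2.42 for clones A and B of 6419c5 and -1.71 and -2.20 for those of 6694c2. The added 1 TPM compresses the change of so scarce a transcript: with log2(TPM + 0.1) it was -2.99 in 6419c5 and -2.54 in 6694c2.

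Lamb3 encodes the beta 3 chain, found in laminin-332 and few other laminins. In 6419c5 its level was 46.8, 46.5 and 45.45 TPM in WT, 28.4, 27.2 and 32.6 TPM in clone A and 14.8, 13.0 and 13.7 TPM in clone B. In 6694c2 its level was 56.7, 59.65 and 38.7 TPM in WT, 14.9, 8.96 and 9.07 TPM in clone A and 15.25, 14.8 and 6.97 TPM in clone B. The 3 groups of 6419c5 formed separate steps, whereas the 2 clones of 6694c2 overlapped. Lamb3 fell by 1.16 in 6419c5 (SE 0.21, limma adjusted p = 0.00296) and by 2.09 in 6694c2 (SE 0.21, limma adjusted p = 6.61e-06). The fall was larger in 6694c2 by 0.93, which did not pass the test (SE 0.30, limma adjusted p = 0.0699). That difference passed without WT replicate 3 of 6694c2 (-1.12, limma adjusted p = 0.036), without its clone A replicate 1 (-1.04, limma adjusted p = 0.035) or without its clone B replicate 3 (-0.77, limma adjusted p = 0.0498). Scaling moved it too: it passed with median-of-ratios scaling (-1.12, limma adjusted p = 0.039), quantile normalization (-1.07, limma adjusted p = 0.049) and the 20 most abundant genes removed (-1.03, limma adjusted p = 0.0453), and in 5 of 11 other settings in all. Clone A of 6419c5 did not pass alone (-0.64, limma adjusted p = 0.191), although it did with the libraries of the line alone (-0.64, limma adjusted p = 0.00841) and without 3 libraries that stood apart, named below with the cell markers (-0.65, limma adjusted p = 0.0302). The other 3 clones passed (-1.67 for clone B of 6419c5, -2.15 and -2.03 for clones A and B of 6694c2).

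In 6419c5, Lama3 and Lamb3 were the 2 of 7 members called lower, and none was called higher, where 3.4% of all tested genes were called lower. Clone A alone had 1 of 7 lower (Lama3, against 1.65% of all genes) and clone B alone 3 of 7 (Lama3, Lamb3 and Itga3, against 11.0%). The count for clone A was 2 with the line alone and without the 3 libraries that stood apart. The median change of the 7 members was -0.16, beside 0.01 over all genes tested. Because the members were chosen with earlier results known, their counts beside the shares of all genes are only descriptive, here and below.

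In 6694c2, 6 of 7 members were called lower, all but Itgb1, where 5.79% of all genes were. Clone A alone gave the same count of 6 against 7.01% of all genes, and clone B alone gave 4 (Lama3, Lamb3, Itga3 and Itgb4) against 3.94%. The clone A count was 2 with a covariate for endothelial marker genes (their mean log2 level in a library) and 1 with the same for fibroblast markers. Both marker means lay above all of WT in every clone A library, so clone and covariate cannot be fully told apart. The clone B count was 2 without WT replicate 2, without its own replicate 3 and without the 3 libraries that stood apart. The members' median change was -0.58, beside 0.15 over all genes. That general shift depends on scaling: median-of-ratios scaling moved the median of all genes by -0.18 and turned the split of called genes from 1967 higher and 777 lower into 1023 higher and 1795 lower. The count of 6 members lower was the same with that scaling, with quantile normalization and with the 20 most abundant genes removed. It was 5 with a covariate for macrophage markers, without the 3 libraries that stood apart and with the line alone. It was 4 with the endothelial covariate and 2 with the fibroblast covariate. With equal weight on both lines, 4 of 7 members were called lower (Lama3, Lamb3, Itga3 and Itgb4), against 5.89% of all genes.

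**Figure D2:**
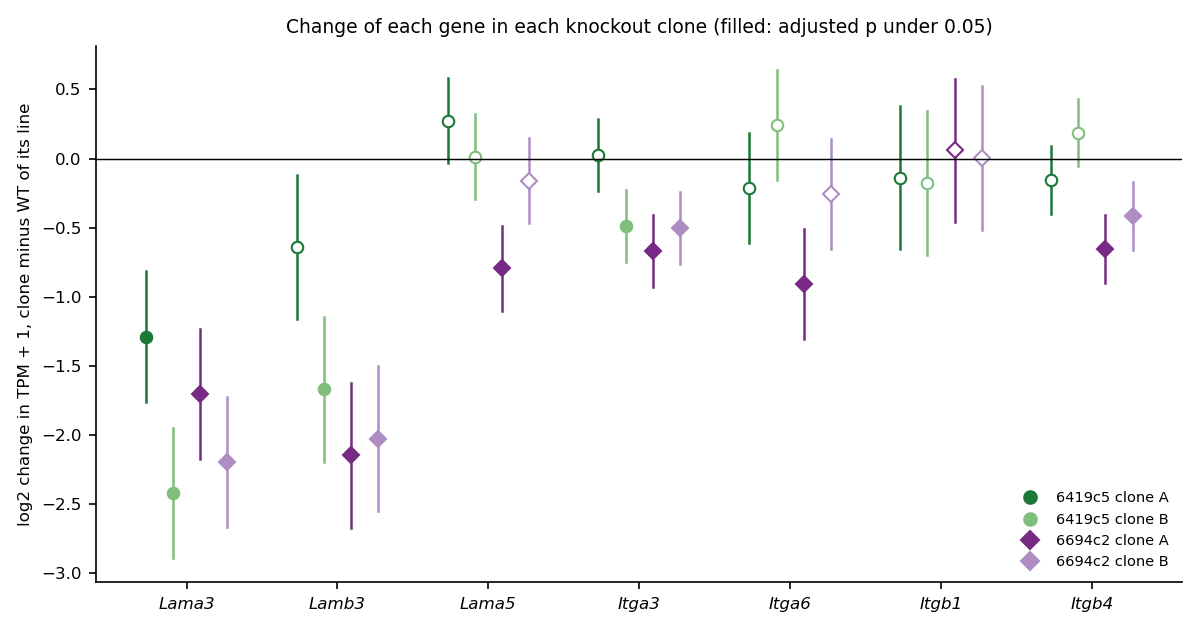
Log2 change in TPM + 1 of each gene in each knockout clone against the WT libraries of its line, with 95% intervals, filled where the adjusted p is under 0.05. Lama3 and Lamb3 lie below 0 in all 4 clones, and the other genes are filled mainly in the clones of 6694c2, which share their WT libraries.

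Lama5, the alpha chain that was far more abundant than Lama3, did not follow it. In 6419c5 it was at 139.7, 168 and 116.5 TPM in WT, 163, 164 and 182 TPM in clone A and 147, 136 and 141 TPM in clone B. Each clone overlapped WT, while clone A lay above clone B without overlap. In 6694c2 it was at 131, 170.0 and 196 TPM in WT, 89.0, 99.95 and 92.3 TPM in clone A and 155, 159 and 126 TPM in clone B. Only clone A of 6694c2 lay below all of its WT libraries as a group, and clone B had 1 library below them. The change was 0.14 in 6419c5 (SE 0.13, limma adjusted p = 0.631) and -0.48 in 6694c2 (SE 0.13, limma adjusted p = 0.0146). Within 6694c2, clone A passed alone (-0.80, limma adjusted p = 0.0014), clone B did not (-0.16, limma adjusted p = 0.482), and the 2 clones differed by 0.63 (limma adjusted p = 0.0144). The call for the line was lost without WT replicate 2 (-0.45, limma adjusted p = 0.0578) or WT replicate 3 (-0.35, limma adjusted p = 0.0707), and the difference between its clones without clone A replicate 3, clone B replicate 1 or clone B replicate 2 (0.57 to 0.62, limma adjusted p = 0.0532 to 0.081).

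Itga3 encodes the alpha 3 subunit, whose only partner is beta 1 and which binds laminin-332 and laminin-511. Its level in 6419c5 was 235, 253 and 215 TPM in WT, 279, 211 and 229 TPM in clone A and 171, 148 and 182 TPM in clone B. Its level in 6694c2 was 396, 413 and 367 TPM in WT, 224, 275 and 242 TPM in clone A and 299, 295 and 239 TPM in clone B. All 6 knockout libraries of 6694c2 and the 3 of clone B of 6419c5 lay below their WT libraries, and clone A of 6419c5 overlapped them. Itga3 fell by 0.59 in 6694c2 (SE 0.11, limma adjusted p = 0.00135), and its change in 6419c5 was -0.23 (SE 0.11, limma adjusted p = 0.241). Clone B of 6419c5 passed alone (-0.49, limma adjusted p = 0.0122), but not without its replicate 2 (-0.41, limma adjusted p = 0.0578) or with median-of-ratios scaling (-0.45, limma adjusted p = 0.0611). Clone B of 6694c2 also passed (-0.50, limma adjusted p = 0.0128), though not without WT replicate 2 (-0.46, limma adjusted p = 0.0501) or without its own replicate 3 (-0.40, limma adjusted p = 0.0594).

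Itga6 encodes the alpha 6 subunit, shared by the beta 1 and beta 4 receptors. In 6419c5 it was at 244, 167 and 169.8 TPM in WT, 185, 158 and 151 TPM in clone A and 217, 238 and 222 TPM in clone B. In 6694c2 it was at 169, 127 and 218 TPM in WT, 82.8, 98.15 and 85.55 TPM in clone A and 152, 158 and 113 TPM in clone B. The clone A libraries of 6694c2 were the lowest of all 18, and the other groups overlapped their WT. The change was -0.58 in 6694c2 (SE 0.16, limma adjusted p = 0.0196) and 0.01 in 6419c5 (SE 0.16, limma adjusted p = 0.986), a value whose sign turned with other scalings. That of 6694c2 was carried by clone A (-0.91, limma adjusted p = 0.0032), while clone B did not pass (-0.26, limma adjusted p = 0.376). The line's call was lost without its WT replicate 1 (-0.57, limma adjusted p = 0.0558) or WT replicate 3 (-0.39, limma adjusted p = 0.0935).

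Itgb4 encodes the beta 4 subunit, which pairs only with alpha 6 and reaches plectin and keratin in hemidesmosomes. Its level in 6419c5 was 95.4, 109 and 80.75 TPM in WT, 74.6, 87.5 and 92.8 TPM in clone A and 112, 107 and 105 TPM in clone B. Its level in 6694c2 was 145, 169 and 154 TPM in WT, 95.01, 108 and 92.9 TPM in clone A and 123, 123 and 104 TPM in clone B. In 6694c2 every knockout library lay below every WT library, and in 6419c5 both clones overlapped WT. Itgb4 fell by 0.54 in 6694c2 (SE 0.10, limma adjusted p = 0.00161), and its change in 6419c5 was 0.02 (SE 0.10, limma adjusted p = 0.972), of either sign under other scalings. Clone A of 6694c2 passed alone (-0.66, limma adjusted p = 0.00106), and clone B did (-0.42, limma adjusted p = 0.0244) except without WT replicate 2 (-0.36, limma adjusted p = 0.096) or its own replicate 3 (-0.34, limma adjusted p = 0.0966). With both lines, Itgb4 was lower by a call (-0.26, limma adjusted p = 0.0186) that was lost without WT replicate 2 of 6419c5 (-0.21, limma adjusted p = 0.062) or of 6694c2 (-0.23, limma adjusted p = 0.0526) and with the endothelial (-0.22, limma adjusted p = 0.124) or fibroblast mean (-0.19, limma adjusted p = 0.217).

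Itgb1 encodes the beta 1 subunit, the common partner of alpha 3, alpha 6 and many other alpha subunits. In 6419c5 it was at 489, 283 and 361 TPM in WT, 416, 299 and 301 TPM in clone A and 275, 394.5 and 317 TPM in clone B. In 6694c2 it was at 385, 275 and 557 TPM in WT, 342, 463 and 421 TPM in clone A and 403, 425 and 349 TPM in clone B. The WT libraries of 6694c2 held both the lowest and the highest value of that line. Its change was -0.16 in 6419c5 (95% interval -0.61 to 0.29, limma adjusted p = 0.794) and 0.03 in 6694c2 (95% interval -0.42 to 0.48, limma adjusted p = 0.929), negative with other scalings. Changes within these intervals could not be resolved.

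The knockout effect itself was compared between lines, as 6694c2 minus 6419c5. It was more negative in 6694c2 for 2 of 7 members, Lama5 (-0.62, SE 0.18, limma adjusted p = 0.0419) and Itgb4 (-0.55, SE 0.14, limma adjusted p = 0.0244). Of all genes, 8.71% differed in either direction and 2.93% were more negative in 6694c2. The count was 4 with median-of-ratios scaling, where Lamb3 and Itga6 (-0.78, limma adjusted p = 0.0185) passed too, and 0 with the macrophage or fibroblast mean as a covariate. It was 1, Itgb4, with no filter on low values and with a replicate block. With the endothelial mean and without the 3 libraries that stood apart, Lamb3 was the 1 member called (-1.07 and -0.86, limma adjusted p = 0.0495 and 0.0228). Lama5 and Itgb4 were not called in either of those fits. The difference was -0.60 for Itga6 (limma adjusted p = 0.121) and -0.35 for Itga3 (limma adjusted p = 0.162). The Lama5 difference was lost when any of 15 single libraries was left out (-0.65 to -0.49, limma adjusted p = 0.0506 to 0.128). The Itgb4 difference was lost without WT replicate 3 of 6419c5 (-0.44, limma adjusted p = 0.0768) or WT replicate 2 of 6694c2 (-0.49, limma adjusted p = 0.0666).

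The 2 clones of a line were also compared, as clone B minus clone A. In 6419c5 clone B was lower for Lama3 (-1.13, limma adjusted p = 0.00197), Lamb3 (-1.03, limma adjusted p = 0.00658) and Itga3 (-0.51, limma adjusted p = 0.00657) and higher for Itgb4 (0.34, limma adjusted p = 0.0378), which makes 4 of 7 members where 26.3% of all genes differed. With the macrophage mean as a covariate only Itga3 was called, Lama3 (-0.94, limma adjusted p = 0.106) and Lamb3 (-1.23, limma adjusted p = 0.063) were not, and with median-of-ratios scaling Itga3 was not (-0.40, limma adjusted p = 0.0746). Itga6 was called higher in clone B with the 3 scalings (0.54 to 0.57, limma adjusted p = 0.0143 to 0.0428). The Itgb4 difference was lost without clone A replicate 1 or 2 or any replicate of clone B (0.25 to 0.37, limma adjusted p = 0.071 to 0.144), with each of the 3 marker means and with the line alone (0.22 to 0.34, limma adjusted p = 0.0752 to 0.412). None of the 3 marker means overlapped between the clones of 6419c5, so clone and covariate cannot be fully told apart there. In 6694c2 clone B was higher for Lama5 and for Itga6 (0.65, limma adjusted p = 0.0407), 2 of 7 where 9.53% of all genes differed and 5.27% were higher. The Itga6 difference was lost when any of 11 single libraries was left out (0.56 to 0.72, limma adjusted p = 0.0506 to 0.183). Neither gene was called with any of the 3 marker means as a covariate or with the line alone. The fibroblast and endothelial means did not overlap between the clones of 6694c2, so clone and covariate cannot be fully told apart in those fits.

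Between the WT groups, 2 of 7 members were higher in 6694c2 than in 6419c5, Itga3 (0.74, SE 0.12, limma adjusted p = 1.71e-04) and Itgb4 (0.72, SE 0.11, limma adjusted p = 1.32e-04). Of all genes, 46.3% differed in either direction and 14.1% were higher in 6694c2. WT Lama3 was higher in 6694c2 in all 3 libraries, by 0.52 (limma adjusted p = 0.0687), and it passed with the 3 scalings (0.61 to 0.86, limma adjusted p = 0.00999 to 0.0429). With median-of-ratios scaling, which moved the median of all genes in this comparison by 0.20, the count of members rose to 4.

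Markers of other cell types moved with some groups. In 6694c2 the mean log2(TPM + 1) of 10 fibroblast markers was 2.69 to 3.24 in WT, 4.93 to 5.28 in clone A and 2.49, 2.63 and 4.72 in clone B, with Dcn, a matrix proteoglycan of fibroblasts, higher by 2.07 (limma adjusted p = 5.4e-04). Their summed level was 155 to 268 TPM in WT, 721.5 to 1064 TPM in clone A and 109.7 to 877 TPM in clone B, and none of the 10 was at 0 in a whole group. The mean of 12 macrophage markers was 2.76 to 5.91 in WT, 6.76 to 7.365 in clone A and 3.78, 3.84 and 6.78 in clone B, with sums of 141 to 1780, 3317 to 6296 and 423 to 3473 TPM. Epithelial genes were present throughout, Cdh1 (E-cadherin) at 168.7 TPM or more and Krt8, a keratin of simple epithelia, at 1932 TPM or more in every library. Of 8 epithelial markers 4 were lower in each line, among them Epcam (-2.02 in 6419c5, limma adjusted p = 1.55e-04, and -3.03 in 6694c2, limma adjusted p = 9.97e-07).

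With the fibroblast mean as a covariate, a fit added after these values were seen, Lama3 and Lamb3 stayed called in both lines (limma adjusted p at most 0.00156). In 6694c2 the other 4 called members were not called in that fit: Lama5 (-0.32, limma adjusted p = 0.272), Itga3 (-0.41, limma adjusted p = 0.069), Itga6 (-0.45, limma adjusted p = 0.248) and Itgb4 (-0.42, limma adjusted p = 0.0657). Lama3 of clone A alone was not called there either (-1.44, limma adjusted p = 0.0624). All fibroblast means of clone A lay above all of WT, so clone and covariate cannot be fully told apart there. With the endothelial mean as a covariate, Lama5 (-0.65, limma adjusted p = 0.0715), Itga3 (-0.52, limma adjusted p = 0.0794), Itga6 (-0.75, limma adjusted p = 0.109) and Itgb4 (-0.55, limma adjusted p = 0.0559) of clone A were not called. Every endothelial mean of clone A (1.76 to 4.56) and of clone B (1.095 to 1.55) also lay above all of WT, so the same limit holds. Clone B replicates 1 and 2 of 6694c2 had fibroblast means below the WT range and macrophage means within it, but their endothelial means (1.095 and 1.125) lay above it (0.752 to 0.925). All 3 clone B libraries were also above WT in the mean of neutrophil markers (1.885 to 2.14, against 1.05 to 1.53) and of T and NK cell markers (0.693 to 1.48, against 0.107 to 0.392). Lama3, Lamb3, Itga3 and Itgb4 of these 2 libraries were below all WT libraries, while their Lama5 and Itga6 lay inside the WT range. In 6419c5, clone B had the lowest macrophage means (2.99 to 3.72, against 5.37 to 8.03 in WT and 6.35 to 8.32 in clone A) together with the lowest Lama3 and Lamb3, and clone A had the highest fibroblast means (4.56 to 4.61, against 3.46 to 3.86 in WT). The part of other cells in the levels of the 7 genes was not tested beyond these values. Libraries that stood apart were WT replicate 3 of 6419c5 and, in 6694c2, clone A replicate 1, with the highest endothelial mean (4.56), and clone B replicate 3. Without these 3, the members called lower were 2 in 6419c5 and 5 in 6694c2.

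Because the chains work as trimers and pairs, their ratios within a library were also read, on the TPM scale. Lamb3 was 7.86 to 9.16 times Lama3 in WT 6419c5, 14.8 to 21.9 times in clone A and 43.7 to 251 times in clone B, where Lama3 was close to 0. In 6694c2 it was 5.95 to 6.58 times Lama3 in WT, 4.62 to 8.19 times in clone A and 9.69 to 13.5 times in clone B.

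Lama5 made up 94.0% to 96.0% of the TPM of all laminin alpha chain genes in WT 6419c5 and 91.9% to 95.2% in WT 6694c2. Lama3 made up 2.90% to 4.67% and 3.17% to 6.05%, and in the knockout clones 0.038% to 2.98%. In clone A of 6694c2 the Lama5 share was lower, at 82.6% to 90.7%, where Lama4, an alpha chain of vessels and mesenchyme, averaged 10.2 TPM against 2.77 TPM in WT. On the receptor side, Itga6 was 1.53 to 2.55 times Itgb4 in 6419c5 and 0.749 to 1.41 times in 6694c2 over all their libraries. The alpha 6 to beta 4 ratio thus differed between the lines without overlap, while clones and WT of a line overlapped in 6419c5 and in 6694c2. Itga3 was below Itga6 only in clone B of 6419c5 (0.621 to 0.817 times) and in 1 WT library of that line (0.966 times).

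**Figure D3:**
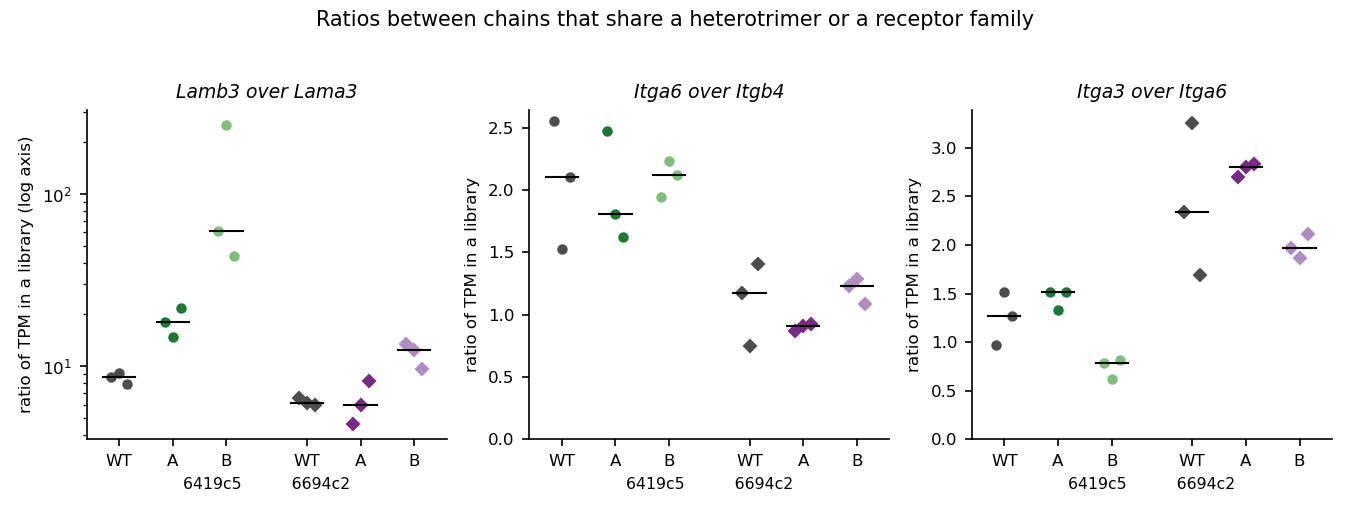
Ratios of TPM between genes in each library (points) with the group median (lines), the Lamb3 over Lama3 panel on a log axis. Lamb3 over Lama3 is higher in all knockout libraries than in WT in 6419c5, and Itga6 over Itgb4 separates the lines.

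Over the 18 libraries on the log2(TPM + 1) scale, Lama3 and Lamb3 varied together (Pearson r = 0.823). This value contains the group differences described above, and the libraries of a group share a clone or line. After subtracting group means, r was 0.754. Itga6 and Itgb1 differed from them, with r = 0.077 over all libraries and 0.903 after subtracting group means: where a library was high in one for its group, it was high in the other. Itga6 and Itgb4, the partners of the hemidesmosome receptor, had r = 0.071 and -0.006. Lama5 and Itgb4, which are not partners in a trimer or receptor, had r = 0.323 and 0.7705. The remaining member pairs had r of -0.4505 to 0.3785 after subtracting group means. Pairs of other genes are not given for comparison, so a high r cannot be read as particular to partner chains.

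**Figure D4:**
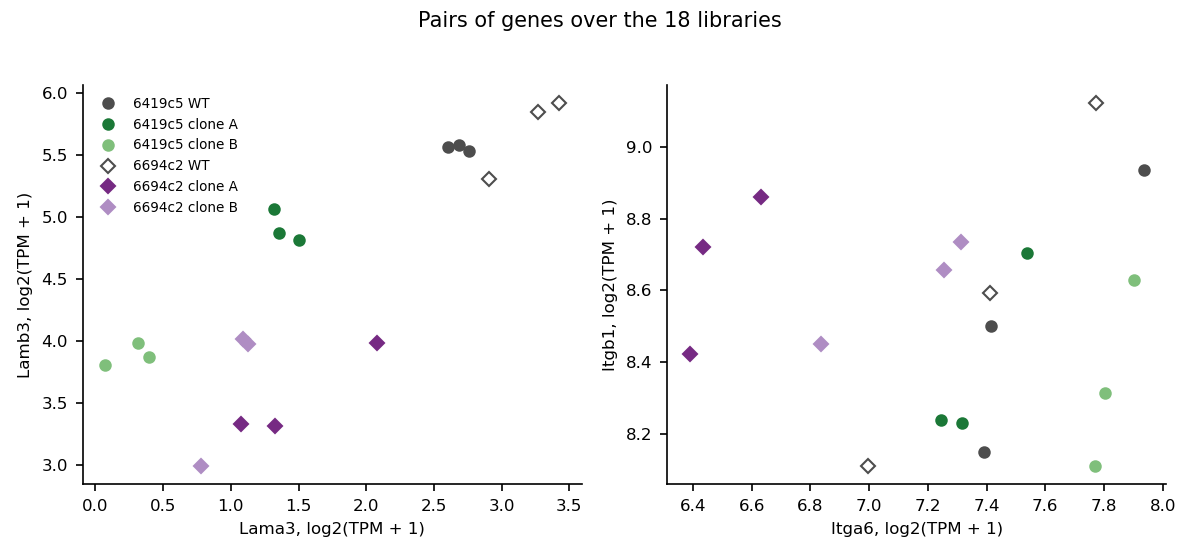
Log2(TPM + 1) of 2 gene pairs in the 18 libraries, coloured by group, with open diamonds for WT of 6694c2. Lama3 and Lamb3 are lower together in the knockout groups, while Itga6 and Itgb1 rise together only within groups.

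Among genes that averaged 5 TPM or more, those with the profile most like each member over the 18 libraries were listed by Pearson r. For Lama3 they were Krt79 (0.912), a keratin, Slc26a9 (0.908), an anion channel, and Pthlh (0.907), parathyroid hormone-like hormone. For Lamb3 they were Atp9a (0.941), Plat (0.896), tissue plasminogen activator, and Cnnm4 (0.894). For Lama5 they were Itpr3 (0.912), Prr12 (0.875) and Agrn (0.873), agrin, a basement membrane proteoglycan. For Itga3 they were Ptprn (0.957), Itga5 (0.948), the fibronectin receptor alpha subunit, and Papd7 (0.927), and for Itga6 Arhgef5 (0.945), Tirap (0.935) and Ctnnb1 (0.930), beta-catenin. For Itgb1 they were Ube2q2 (0.951), Smarca5 (0.945) and Grsf1 (0.943), and for Itgb4 Fam129b (0.938), Arhgef40 (0.919) and Bcl2l1 (0.908). These genes were picked as the most alike of all those genes, so their r describes these libraries.

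Of 7 other laminin chain genes listed, 4 were tested, and none was called in 6419c5. In 6694c2, 1 was called lower, Lamb1 (-0.63, limma adjusted p = 0.0102), the beta 1 chain of laminins with alpha 5. Lamc1, the gamma 1 chain shared by most other laminins, averaged 65.7 to 94.6 TPM in the 6 groups and was not called in either line. Of 17 other integrin genes, 13 were tested. In 6419c5, 3 were higher and none lower: Itgb3, a vitronectin receptor subunit (0.88, limma adjusted p = 0.0138, though 0.83 and 0.0611 without WT replicate 3), the laminin receptor subunit Itga7 (0.58, limma adjusted p = 0.0248) and Itgb5 (0.27, limma adjusted p = 0.0165). Without WT replicate 1 or 3, Itga7 (0.52 and 0.50, limma adjusted p = 0.113 and 0.121) and Itgb5 (0.28 and 0.22, limma adjusted p = 0.0531 and 0.0966) were not called, and Itga7 was also lost without replicate 3 of either clone (0.57, limma adjusted p = 0.0514 and 0.0516). In 6694c2, 3 were higher and 2 lower. Itga2, a collagen and laminin receptor subunit, was lower (-0.96, limma adjusted p = 0.00106), as was Itga5 (-0.55, limma adjusted p = 0.0306), a call lost without any 1 WT library, clone A replicate 1 or clone B replicate 3 (-0.60 to -0.47, limma adjusted p = 0.051 to 0.0989). Itgb7, a leukocyte integrin subunit, was higher (1.76, limma adjusted p = 0.00531), and so was Itga7 (0.66, limma adjusted p = 0.00588, though 0.28 and 0.329 with quantile normalization).

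Partners of the alpha 6 beta 4 receptor were tested for 7 of 8 listed genes, and none passed in 6419c5. In 6694c2, Plec, the plectin that ties beta 4 to keratin, was lower (-0.54, limma adjusted p = 0.00317), Cd9 was lower (-0.36, limma adjusted p = 0.0342) and Tspan4 higher (0.29, limma adjusted p = 0.0481). The calls of Cd9 and Tspan4 held in 14 and 4 of the 18 fits without 1 library. Dst (-0.20, limma adjusted p = 0.342) and Cd151, a tetraspanin bound to laminin-binding integrins (-0.05, limma adjusted p = 0.673), did not pass there. Col17a1, the transmembrane collagen of hemidesmosomes, averaged at most 0.159 TPM in any group and was below the filter. Of 5 other laminin receptors, none passed in 6419c5 and 4 were lower in 6694c2: Bcam, the Lutheran receptor for laminin alpha 5 (-1.18, limma adjusted p = 1.25e-04), the syndecans Sdc4 (-0.58, limma adjusted p = 6.39e-04) and Sdc1 (-0.52, limma adjusted p = 7.33e-04), and Dag1 (-0.29, limma adjusted p = 0.0203, or -0.26 and 0.0626 without WT replicate 3). Bcam, Sdc4 and Sdc1 kept the call in each fit that left out 1 library.

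**Figure D5:**
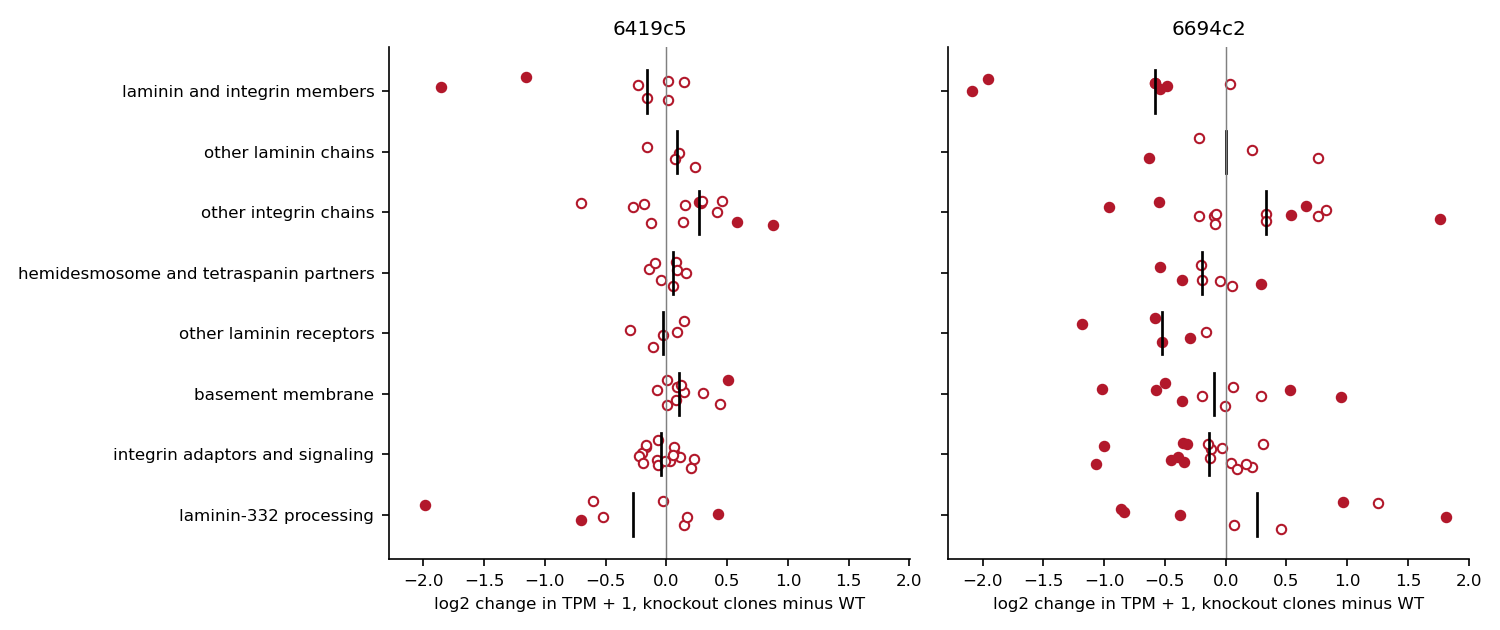
Log2 change in TPM + 1, knockout clones minus WT, of the members and of 7 lists of related genes in each line (points, filled where the adjusted p is under 0.05) with the list median (line). Filled points are few in 6419c5 apart from Lama3 and Lamb3, and in 6694c2 all 6 filled members and all 4 filled laminin receptors lie below 0.

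Of 15 other basement membrane genes, 10 were tested. In 6419c5 only Hspg2, perlecan, was called (0.51, limma adjusted p = 0.0489), a call kept in 4 of 18 fits that left out 1 library. In 6694c2, 4 were lower and 2 higher: Nid1, nidogen, which links laminin to type IV collagen, fell by 1.02 (limma adjusted p = 2.78e-04), and Col7a1, the anchoring fibril collagen that binds laminin-332, rose by 0.95 (limma adjusted p = 7.93e-04). Col4a5, a type IV collagen chain, was lower (-0.57, limma adjusted p = 0.00238), and Ntn4, a laminin-binding netrin, was higher (0.53, limma adjusted p = 0.00992, or 0.45 and 0.0522 without WT replicate 1). Of 16 integrin adaptor and signaling genes none was called in 6419c5, and 7 were lower in 6694c2, with the largest changes in Tln2, a talin (-1.06, limma adjusted p = 5.82e-04), Fermt2, a kindlin (-1.004, limma adjusted p = 0.0236), Src (-0.45, limma adjusted p = 0.00136) and Vcl, vinculin (-0.40, limma adjusted p = 0.0412). Fermt2 was not called without WT replicate 1 (-1.05, limma adjusted p = 0.051) or WT replicate 3 (-0.73, limma adjusted p = 0.103), and Vcl was called in 9 of 18 fits that left out 1 library. All 8 genes of laminin-332 processing were tested. In 6419c5, 1 was higher and 2 were lower, and in 6694c2, 2 were higher and 3 lower. Those with the largest changes are named here. Plat, whose product generates plasmin, which trims the alpha 3 chain, was lower in both lines (-0.70 in 6419c5, limma adjusted p = 6.19e-04, and -0.83 in 6694c2, limma adjusted p = 6.22e-05). The matriptase gene St14 was lower in both as well (-1.99 in 6419c5, limma adjusted p = 1.99e-05, and -0.86 in 6694c2, limma adjusted p = 0.0093). The St14 call in 6694c2 was lost without WT replicate 2 (-0.74, limma adjusted p = 0.0536). Bmp1, a protease of matrix proteins, was higher in 6419c5 (0.43, limma adjusted p = 0.0016), and Mmp9, abundant in myeloid cells, was higher in 6694c2 (1.81, limma adjusted p = 7.27e-04), as was Tll1, a tolloid-like protease (0.97, limma adjusted p = 0.00516). Of all genes tested, 20.4% were called in either direction in 6694c2 and 7.38% in 6419c5. Outside the 7 members, 31 list genes were called in 6694c2, and 13 of them were also called with the fibroblast mean as a covariate. In 6419c5 it was 7 of 7, but 3 of 7 without the 3 libraries that stood apart, 4 with quantile normalization and 5 with median-of-ratios scaling. In 6694c2 those 3 settings left 26, 27 and 29 of 31.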

How the data were processed

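RNA-seq of 18 libraries (6 groups of 3) was analysed from 1 table of TPM values that the authors deposited. Per the submitters' processing notes they used Salmon and the mouse build mm10. Its version, the annotation and the step from transcripts to genes are not given in the sources used here. A batch is named in the title of the table but in no label, and an adjustment for it can be neither seen nor excluded here. Clones are A and B in the columns and KO1 and KO2 in the titles, and A was taken as KO1. Each column sums to 1000000 TPM, 12213 to 13590 genes had at least 1 TPM per library, and the small RNA gene Mir6236 took 6.04% to 17.4% of the TPM. Depth and counting error are unknown.

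Values were tested as log2(TPM + 1) for the 13422 genes that averaged 1 TPM or more, in a limma 3.58.1 model (R 4.3.3) of 6 group means with 12 residual degrees of freedom and a mean-variance trend. P-values were Benjamini-Hochberg adjusted over all genes tested and called under 0.05. The model was checked on simulated data with 200 changed genes. Members and gene lists were chosen with earlier results of these data known. Named genes are the members, Kdm3a as a check of the labels, Plec, Dst, Col17a1 and Cd151, and of each list the called genes with the largest changes, at most 4 per line. Lamc1, Lama4 and the cell markers named were chosen after their values were seen. Likeness lists hold the 3 genes with the highest r. One related gene is not reported here. Alternatives were another pseudocount, filters, scalings, a replicate block, covariates for other cells, 1 line at a time, and libraries left out.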

Additional observations from a re-analysis of the deposited data

Results flagged for a closer look

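The knockout effect on Lama5, the laminin alpha 5 chain gene, differed between the lines by its own test: 6694c2 minus 6419c5 was -0.62 (log2; SE 0.18, limma adjusted p = 0.0419). In 6694c2, 4 of 6 knockout libraries lay below all WT libraries, 3 of them from clone A, and in 6419c5 none did. The call held in 3 of 11 other settings and in 3 of 18 fits without 1 library.

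The knockout effect on Itgb4, the integrin beta 4 gene, differed in the same way, by -0.55 (SE 0.14, limma adjusted p = 0.0244). In 6694c2 no knockout library (6 of 6) reached the lowest WT library. This call held in 7 of 11 other settings and in 16 of 18 fits without 1 library.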

How the results depend on the processing

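The calls of Lama3 and Lamb3 against WT in each line held in every alternative that could test them. For Lama3 the change ranged over -2.99 to -1.80 in 6419c5 and -2.54 to -1.80 in 6694c2, and for Lamb3 over -1.22 to -1.05 and -2.29 to -1.63. A filter at 5 TPM removed Lama3, which left 1 member lower in 6419c5. Over the 52 of 77 member contrasts recomputed (both line effects, their difference, and others with an unadjusted p under 0.05), 511 values from other settings and 866 with 1 library left out kept direction and side of the threshold, 52 and 47 lost the call, 20 and 10 gained it, and 15 and 13 turned sign. Unless a value shows it, the cause was not tested.

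In 6419c5, values near 0 turned. With median-of-ratios scaling, quantile normalization and the 20 most abundant genes removed, Itga6 was -0.0014, -0.0213 and -0.0113, and Itgb4 was -0.0102 and -0.0097 with the last 2. With the macrophage mean as a covariate Itga6 was -0.18 and Itgb4 -0.0122, and without the 3 libraries that stood apart they were -0.0682 and -0.0958. With 1 library left out, Itga6 ranged from -0.0802 to 0.19, Itgb4 from -0.10 to 0.12 and Itgb1 from -0.35 to 0.0453. Genes called higher were 834 with the macrophage mean, and genes called lower were 288 (without WT replicate 1) to 538 with 1 library left out.

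In 6694c2, Itgb1 was -0.17, -0.0913 and -0.0803 with the same 3 scalings. Genes called higher were 1023 with median-of-ratios scaling, 866 with quantile normalization, 863 with the endothelial mean and 604 with the fibroblast mean. Genes called lower were 1795, 1614 and 1194 with the 3 scalings and 336 with the fibroblast mean, with which 2 members were called lower. With the fibroblast mean, Lama5 was -0.32, Itga3 -0.41, Itga6 -0.45 and Itgb4 -0.42, none called. Lama5 also lost its call with the macrophage mean (-0.35) and the endothelial mean (-0.39). Itga6 lost its call with the endothelial mean (-0.49), without the 3 libraries that stood apart (-0.485) and with the line fitted alone (-0.58). With 1 library left out, Lama5 ranged from -0.64 to -0.35, Itga6 from -0.78 to -0.39 and Itgb1 from -0.22 to 0.29.

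Between lines, the difference for Lama3 was 0.46 with log2(TPM + 0.1), 0.0185 with the fibroblast mean and -0.24 to 0.0157 with 1 library left out, and for Itgb1 -0.0579 to 0.45 with 1 library left out. Clone B minus clone A of Itga6 in 6419c5 was -0.29 with the macrophage mean, which did not overlap between these clones.

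Replicate numbers are shared by the groups, but 5 of 18 same-numbered pairs of a line had correlated deviations over 0.1 (range -0.38 to 0.48) and 2 of 18 libraries were closest to one of their own number. The main model therefore did not pair them. Whether the numbers mark a batch is not given in the labels. With a replicate block, members called lower stayed at 2 and 6, while the Lama5 difference between lines (-0.62, limma adjusted p = 0.055) and clone B minus clone A of Itga6 in 6694c2 (0.65, limma adjusted p = 0.055) lost their calls.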
